A study of Mus musculus with 12 samples.

Results

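The high-dose intranasal model of house dust mite (HDM) asthma, labelled neutrophilic, was compared here with the PBS control, lung against lung. The comparison was chosen by sample title: 3 arrays titled neutrophilic asthma and 3 titled control, 6 of the 12 arrays in the series. Neutrophilic mice (numbers 23, 24 and 25) received HDM extract with 7.5 DU of Der f and 7.5 DU of Der p in 4 weekly intranasal applications. Der f and Der p stand for extracts of the mites Dermatophagoides farinae and Dermatophagoides pteronyssinus, and DU for development units of the extract. Control mice (numbers 1, 2 and 3) received only PBS by the same route. All mice were Balb/c, and total RNA of whole snap-frozen lung was hybridised to Affymetrix arrays. The remaining groups had 3 mice each: the mixed model, with 0.75 DU of each extract on the same intranasal schedule, and the eosinophilic model, with 3 intraperitoneal injections of 0.75 DU of each extract on 1.5 mg of aluminium hydroxide and then intranasal challenge. The labels give no age, sex, batch or cell count.

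Neutrophils are short-lived granulocytes that enter the airway along gradients of CXC chemokines such as Cxcl1, Cxcl2 and Cxcl5, which they read through the receptor Cxcr2. Airway epithelium and macrophages make these chemokines after microbial products, IL-1, TNF or IL-17 activate NF-kappaB, the transcription factor that also switches on its own inhibitors. In type 2 asthma, by contrast, IL-4 and IL-13 acting through Stat6 drive eosinophil chemokines, goblet cells and mucus. In bulk lung RNA, fewer cells of a type and less RNA per cell cannot be told apart.

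Of the 6 arrays, 5 had SDs of log2 levels between 1.85 and 2.04 and correlated with the median of the others at 0.956 to 0.965. The array of neutrophilic mouse 23 stood apart, with an SD of 1.51 and a correlation of 0.868: levels on it ran towards the middle of the scale. The neutrophilic minus control difference changed by -0.105 for each unit of log2 level with mouse 23 and by -0.00717 without it. Differences and calls are given with and without this mouse, and adjusted p-values are those with it unless stated otherwise. Defining lung markers were present in all 6 lungs. Sftpc, the surfactant protein of alveolar type 2 cells, measured 14.14, 14.14 and 14.0 in the control lungs and 13.37, 13.84 and 13.9 in the neutrophilic lungs, and Scgb1a1, the club cell secretoglobin, measured 12.28, 12.74 and 12.91 in the control lungs and 13.25, 13.38 and 13.28 in the neutrophilic lungs. Among the lists of skeletal muscle, heart, thymus, fat, oesophagus, mesothelium, thyroid and red cell markers, no gene passed the threshold in either direction.

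More genes were lower than higher in the neutrophilic lungs. In the limma fit over 11 arrays (Benjamini-Hochberg adjusted p under 0.05 over 19937 genes), 447 genes, 2.24% of those tested, rose and 1442 genes, 7.23%, fell, 1889 in all, of which 1674 differed at least 2-fold. The same means fitted with all 12 arrays gave 421 genes, 132 higher and 289 lower, each of them also called with 11 arrays. The added array, of eosinophilic mouse 7, correlated with the others at only 0.356. Among the 11 arrays, that of eosinophilic mouse 9 had an SD of 1.52 and a correlation of 0.863, near those of mouse 23. Without the eosinophilic group, 2682 genes were called (603 higher, 2079 lower). Without mouse 23 the call was 1768 genes, 718 higher (3.6%) and 1050 lower (5.27%). The calls with and without mouse 23 had 1374 genes in common, all in the same direction, and the share of rises among called genes moved from 23.7% to 40.6%. After quantile normalization, which gives each array the same range, 818 genes were higher and 1200 lower. The median over all genes was 0.05 with mouse 23 and 0 without, but it varied with level. Among the 3802 genes with a mean of 7 to 9 over all 12 arrays, the median was -0.4 (-0.17 without mouse 23), 14.8% were called lower (9.5%) and 5% higher (8.13%). Among the 686 genes at 9 and above it was -0.34 (-0.1 without mouse 23), with 10.8% called lower (6.56%) and 5.39% higher (8.6%), and among the 7536 genes from 5 to 7 it was -0.17 (-0.12), with 9.99% called lower (7.76%) and 2.51% higher (4.26%). The 7913 genes under 5 had a median of 0.27 (0.08 without mouse 23), with 0.645% called lower (0.746%) and 0.392% higher (0.366%). Counts and medians of all lists below are to be read against these shares and medians. Leaving out control mouse 1 left 605 calls, and leaving out control mouse 2 left 669. Of the 1889 called genes, 1881 had no overlap between neutrophilic and control lungs.

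**Figure D1:**
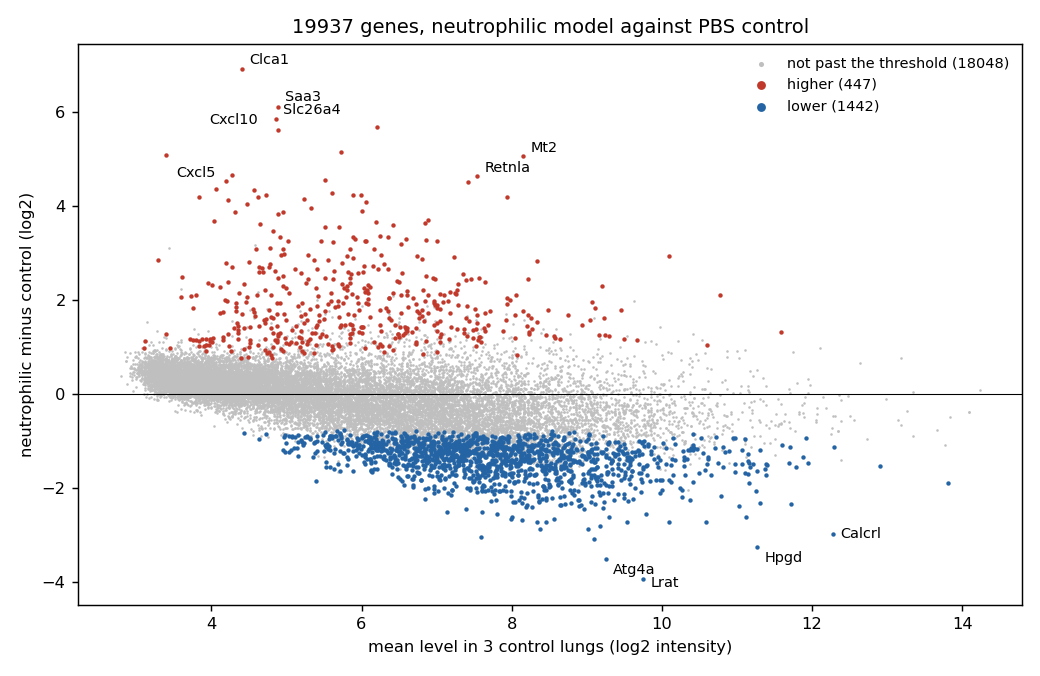
Difference between neutrophilic and control lungs (log2, vertical) against the mean control level (log2 intensity, horizontal) for 19937 genes, one point per gene, coloured where limma adjusted p was under 0.05. The 447 rises lie mostly at low to middle control levels and reach 6.91 for Clca1, and the 1442 falls lie at middle to high levels and reach -3.94 for Lrat.

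The 12 largest rises included the chemokines Cxcl10, Ccl3, Ccl8, Cxcl2 and Cxcl5, beside Clca1, Saa3, Slc26a4, Mt2, Retnla, Timp1 and Serpina3n. They were ranked among called genes without overlap between the groups. Predicted genes, clones, micro RNAs, small nucleolar RNAs and immunoglobulin genes were left out of the ranking. In the sentences below, values run in the order of control mice 1, 2 and 3, then neutrophilic mice 23, 24 and 25, as log2 intensities. Clca1, the secreted goblet cell protein formerly called Gob5, measured 4.27, 4.55 and 4.41 in the control lungs and 11.62, 11.2 and 11.13 in the neutrophilic lungs (log2 difference 6.91, SE 0.3, adjusted p = 4.77e-08, 6.76 without mouse 23). Every neutrophilic lung, mouse 23 included, was thus over 6 units above every control lung, and the fold difference of the means was 120. Saa3, the acute phase serum amyloid made in lung epithelium and macrophages, measured 5.32, 4.97 and 4.39 in the control lungs and 10.83, 10.83 and 11.37 in the neutrophilic lungs (log2 difference 6.12, SE 0.37, adjusted p = 1.39e-06, 6.21 without mouse 23). Slc26a4, the apical anion exchanger pendrin, measured 4.93, 4.57 and 5.07 in the control lungs and 10.28, 10.64 and 11.2 in the neutrophilic lungs (log2 difference 5.85, SE 0.3, adjusted p = 2.3e-07, 6.06 without mouse 23). Mouse 23 lay within 1 unit of mice 24 and 25 for these genes. Mt2, a metallothionein that binds zinc and copper, measured 8.25, 8.16 and 8.03 in the control lungs and 12.81, 13.37 and 13.45 in the neutrophilic lungs (log2 difference 5.07, SE 0.7, adjusted p = 0.000915, 5.27 without mouse 23). Its neighbour in the family, Mt1, chosen after its values were seen, rose by 4.2 (4.37 without mouse 23, adjusted p = 2.51e-05). Timp1, an inhibitor of matrix metalloproteinases, rose by 4.56 (4.88 without mouse 23, adjusted p = 8.7e-05), and Serpina3n, a secreted protease inhibitor of the acute phase, by 4.51 (4.62, adjusted p = 4.37e-06). Of the 12 largest rises, the calls of Retnla and Serpina3n ended with all 12 arrays (adjusted p = 0.0554 and 0.089).

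The 12 largest falls, ranked by the same rule, were in genes of varied function. Lrat, which esterifies retinol for storage, measured 9.88, 9.47 and 9.89 in the control lungs and 5.7, 5.88 and 5.84 in the neutrophilic lungs (log2 difference -3.94, SE 0.39, adjusted p = 8.96e-05, -3.88 without mouse 23). All 3 neutrophilic lungs lay close together and far under the controls. Hpgd, which inactivates prostaglandins, measured 11.63, 11.25 and 10.92 in the control lungs and 8.33, 7.57 and 8.12 in the neutrophilic lungs (log2 difference -3.26, SE 0.35, adjusted p = 0.000182, -3.42 without mouse 23). Calcrl, the receptor for adrenomedullin and CGRP on endothelium, measured 12.49, 12.28 and 12.07 in the control lungs and 9.98, 8.92 and 9.0 in the neutrophilic lungs (log2 difference -2.98, SE 0.31, adjusted p = 0.00015, -3.32 without mouse 23). The groups did not overlap for either gene, as the ranking required. Kcnj13, a potassium channel, fell (-3.04, -3.08 without mouse 23, adjusted p = 1.21e-05), Lurap1l (-3.09, -2.76 without mouse 23, adjusted p = 0.00208), Slc25a36, a mitochondrial nucleotide carrier (-2.73, -2.17 without mouse 23, adjusted p = 0.00214), Pon1, a paraoxonase (-2.88, -2.68 without mouse 23, adjusted p = 8.7e-05), and Cckar, the cholecystokinin A receptor (-2.73, -2.62 without mouse 23, adjusted p = 9.93e-05). Clec1a, a C-type lectin of endothelium, fell (-2.8, -3.1 without mouse 23, adjusted p = 0.00192) and Nbeal1, a large BEACH-domain protein (-2.86, -2.76 without mouse 23, adjusted p = 4.49e-05). Akap5, the last of the 12, is given with the alveolar genes. Atg4a, an autophagy protease, measured 8.7, 8.2 and 10.84 in the control lungs and 6.26, 3.12 and 7.84 in the neutrophilic lungs (log2 difference -3.51, SE 0.95, adjusted p = 0.0337, -3.77 without mouse 23). Mouse 24 was far below the other lungs: the value was -2.2 without it (adjusted p = 0.0992) and -2.16 as the mean of both probe sets of the gene (adjusted p = 0.0168), and the call ended after quantile normalization (0.0595) and with only the 6 arrays of both groups (0.0635). Leaving out 1 mouse at a time ended a call, with adjusted p up to 0.133 for Atg4a (without control mouse 3). Of the 12 largest falls, the calls of Hpgd, Calcrl and Atg4a ended with all 12 arrays (adjusted p = 0.0609, 0.135 and 0.0947).

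Small nucleolar RNA genes moved the other way: 20 of 53 were called higher and 0 lower (19 and 0 without mouse 23), with a median of 1.15 (1.19). Their medians against the control mean were 0.98, 1.06 and 1.4 in mice 23, 24 and 25, against 0.3, -0.37 and 0.09 in the controls and 0.29 to 0.61 in the mixed lungs. The protein-coding genes had a median of 0.02, and 2.24% of all genes were called higher (3.6% without mouse 23). Falls were also more frequent among genes with a long genomic span, introns included, in RefSeq. Of protein-coding genes with a mean level of 7 or more, 5.04% of the 992 with a span under 10 kb were called lower (3.23% without mouse 23), 8.36% of the 1424 from 10 to 30 kb (5.13%), 19.3% of the 1381 from 30 to 100 kb (11.5%) and 32.4% of the 620 of 100 kb or more (22.7%). Rises ran the other way, from 8.57% of the shortest to 1.13% of the longest. The labels give no measure of RNA quality, and the part of both patterns in the falls of the junction, alveolar, vessel and stromal genes was not tested.

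Of 26 measured neutrophil markers, 14 were called higher and 0 lower (18 and 0 without mouse 23), with a median of 1.76 (1.91 without mouse 23), against 2.24% of all genes called higher and 2.51% of those in the same range of level. S100a9, one chain of the calprotectin dimer that fills neutrophil cytosol, measured 7.5, 5.59 and 5.95 in the control lungs and 8.83, 10.08 and 10.14 in the neutrophilic lungs (log2 difference 3.34, SE 0.45, adjusted p = 0.000811, 3.77 without mouse 23). Its partner S100a8 measured 7.02, 5.54 and 6.5 in the control lungs and 8.11, 9.53 and 9.39 in the neutrophilic lungs (log2 difference 2.66, SE 0.44, adjusted p = 0.00261, 3.11 without mouse 23). Control mouse 1 was the highest control for both, and no neutrophilic lung reached down to it. Ly6g, the surface antigen that defines mouse neutrophils, measured 4.79, 4.49 and 4.54 in the control lungs and 5.96, 8.38 and 8.73 in the neutrophilic lungs (log2 difference 3.08, SE 0.6, adjusted p = 0.00655, 3.95 without mouse 23). Mmp8, the neutrophil collagenase, measured 4.96, 4.55 and 4.39 in the control lungs and 5.78, 8.09 and 8.13 in the neutrophilic lungs (log2 difference 2.7, SE 0.53, adjusted p = 0.0069, 3.47 without mouse 23). Mice 24 and 25 were over 2 units above mouse 23 for both genes, and mouse 23 was still above all controls. Il1r2, the decoy receptor of IL-1, rose by 3.68 (4.48 without mouse 23, adjusted p = 0.00186), Trem1, an amplifying receptor, by 2.61 (3.05 without mouse 23, adjusted p = 0.00628), and Csf3r, the G-CSF receptor, by 1.84 (1.85 without mouse 23, adjusted p = 0.0163). Ngp, a granule protein of maturing neutrophils, measured 4.2, 4.08 and 4.33 in the control lungs and 4.48, 7.85 and 8.69 in the neutrophilic lungs (log2 difference 2.8, SE 0.83, adjusted p = 0.0481, 4.07 without mouse 23), so that it was high in 2 lungs and near control in mouse 23. Calls that ended with 1 mouse left out had adjusted p up to 0.0944 for Csf3r (without control mouse 2) and 0.156 for Ngp (without neutrophilic mouse 25).

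The genes for contents of the primary granules did not pass the threshold. Mpo, myeloperoxidase, measured 3.89, 4.02 and 4.64 in the control lungs and 5.21, 3.83 and 4.52 in the neutrophilic lungs (log2 difference 0.34, -0.01 without mouse 23, adjusted p = 0.594). Elane, neutrophil elastase, measured 4.46, 4.57 and 4.83 in the control lungs and 4.69, 4.48 and 4.8 in the neutrophilic lungs (0.04, 0.02 without mouse 23, adjusted p = 0.942), and Prtn3, proteinase 3, differed by 0.34 (0.51 without mouse 23, adjusted p = 0.41). Such genes are transcribed mainly in neutrophil precursors of the marrow, and the levels here of Mpo and Elane lay between 3.83 and 5.21, near the bottom of the scale. Cxcr2 measured 7.64, 5.83 and 7.14 in the control lungs and 7.45, 9.28 and 9.46 in the neutrophilic lungs (log2 difference 1.87, SE 0.58, adjusted p = 0.0613, 2.51 without mouse 23 with adjusted p = 0.0106). Mmp9, gelatinase B, measured 6.51, 5.87 and 6.0 in the control lungs and 5.45, 7.75 and 8.77 in the neutrophilic lungs (log2 difference 1.2, SE 0.65, adjusted p = 0.292, 2.13 without mouse 23 with adjusted p = 0.0113). Both overlapped the controls through mouse 23 and passed without it. With mouse 23 kept, Cxcr2 passed after quantile normalization (adjusted p = 0.00842), under both filters on dim probes (0.0458 and 0.0417) and without the eosinophilic group (0.0443). Array weights and the SD covariate brought both genes past the threshold (0.00127 and 0.00793 for Cxcr2 and Mmp9 with the covariate). With all 12 arrays, 7 of the neutrophil markers were called higher.

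**Figure D2:**
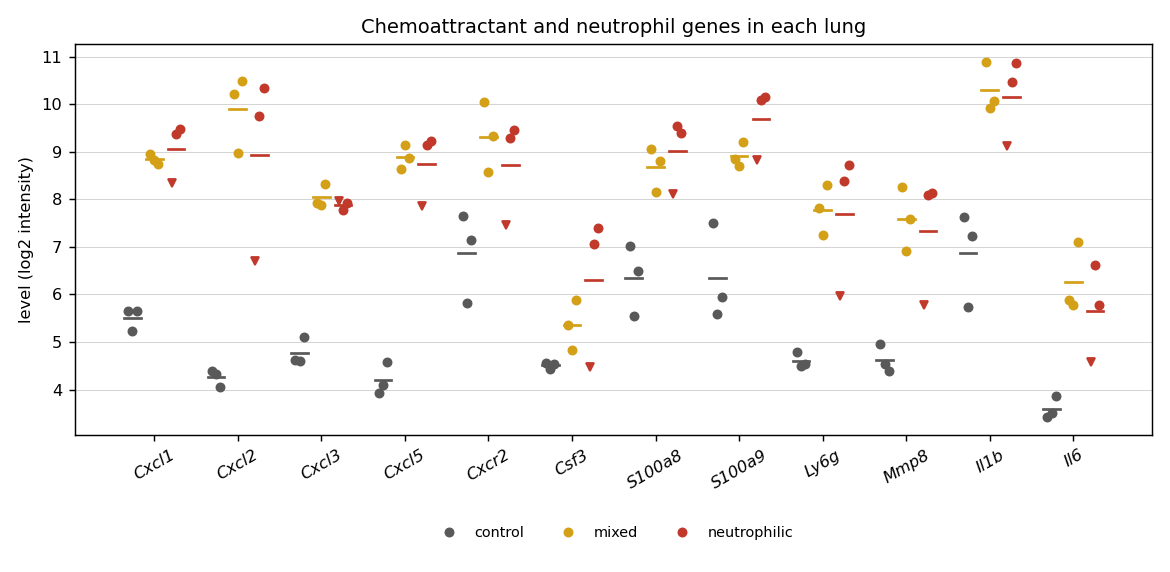
Log2 level of 12 chemoattractant and neutrophil genes in each control, mixed and neutrophilic lung (3 lungs a group, lines at group means, the triangle marks neutrophilic mouse 23). Cxcl1, Cxcl3 and Cxcl5 were above every control in all neutrophilic lungs, and mouse 23 was the lowest neutrophilic lung for all the genes drawn but Cxcl3.

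Cxcl1, Cxcl2, Cxcl3 and Cxcl5, CXC chemokines that call neutrophils, rose, and the promoters of the first 3 hold the same match to the NF-kappaB consensus. No promoter sequence of Cxcl5 was available, so that gene was not searched. Promoter sequences of Cxcl1, Cxcl2, Cxcl3 and, as a known NF-kappaB target, Nfkbia are shown because all 4 genes were called higher. They are RefSeq sequences of GRCm38.p6, from 250 bases before to 50 after the annotated start, written 5′ to 3′ on the gene's strand, with the match to the NF-kappaB consensus in capitals.
Cxcl1, chr5:90890995-90891294, plus strand: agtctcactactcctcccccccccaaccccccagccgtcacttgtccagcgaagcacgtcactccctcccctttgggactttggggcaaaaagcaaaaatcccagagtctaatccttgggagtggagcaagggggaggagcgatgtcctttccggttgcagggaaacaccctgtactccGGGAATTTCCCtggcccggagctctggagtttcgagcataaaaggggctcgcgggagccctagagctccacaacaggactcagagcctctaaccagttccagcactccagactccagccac
Cxcl2, chr5:90903649-90903948, plus strand: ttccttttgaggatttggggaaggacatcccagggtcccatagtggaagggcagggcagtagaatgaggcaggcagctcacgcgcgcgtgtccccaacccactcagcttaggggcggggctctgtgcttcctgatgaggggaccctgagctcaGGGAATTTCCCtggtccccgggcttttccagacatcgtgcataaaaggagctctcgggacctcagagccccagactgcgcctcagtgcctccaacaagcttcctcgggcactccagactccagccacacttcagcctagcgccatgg
Cxcl3, chr5:90785851-90786150, plus strand: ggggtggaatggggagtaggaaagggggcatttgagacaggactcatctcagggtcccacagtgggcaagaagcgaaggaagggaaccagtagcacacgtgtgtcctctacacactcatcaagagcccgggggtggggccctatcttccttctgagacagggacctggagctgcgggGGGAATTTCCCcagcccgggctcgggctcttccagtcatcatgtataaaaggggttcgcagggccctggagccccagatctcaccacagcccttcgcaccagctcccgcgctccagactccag
Nfkbia, chr12:55492598-55492897, minus strand: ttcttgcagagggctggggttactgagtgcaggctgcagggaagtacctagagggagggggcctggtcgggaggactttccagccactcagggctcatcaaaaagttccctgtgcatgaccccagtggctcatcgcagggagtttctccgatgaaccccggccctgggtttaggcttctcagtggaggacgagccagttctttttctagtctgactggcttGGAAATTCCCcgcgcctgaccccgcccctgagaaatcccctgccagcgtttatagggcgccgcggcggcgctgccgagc
The capitals begin 71, 97, 73 and 29 bases upstream of the start in Cxcl1, Cxcl2, Cxcl3 and Nfkbia. In Cxcl1, Cxcl2 and Cxcl3 the same 11 letters stand there, since matches to the 10-letter consensus overlap on both strands. The consensus, searched on both strands, was found in 5 of 12 chemoattractant genes with a promoter in the table (41.7%) and in 8 of 16 NF-kappaB target genes (50%). It was found in 897 of 15613 tested genes with a promoter (5.75%). A match describes the letters and is not a measured binding site.

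Of 14 chemoattractant genes, 8 were called higher and 0 lower (10 and 0 without mouse 23), with a median of 1.84 (2.55 without mouse 23). Cxcl5, the epithelial ligand of Cxcr2, measured 3.93, 4.09 and 4.59 in the control lungs and 7.86, 9.14 and 9.22 in the neutrophilic lungs (log2 difference 4.54, SE 0.35, adjusted p = 1.21e-05, 4.98 without mouse 23). Cxcl1 measured 5.66, 5.23 and 5.65 in the control lungs and 8.34, 9.37 and 9.48 in the neutrophilic lungs (log2 difference 3.55, SE 0.3, adjusted p = 3.07e-05, 3.91 without mouse 23). Cxcl3 measured 4.63, 4.6 and 5.1 in the control lungs and 7.96, 7.78 and 7.93 in the neutrophilic lungs (log2 difference 3.11, SE 0.28, adjusted p = 4.9e-05, 3.08 without mouse 23). The groups lay over 2 units apart for all of these, and Cxcl3 was as high in mouse 23 as in mice 24 and 25. Cxcl2, the ligand made mostly by macrophages and neutrophils, measured 4.39, 4.34 and 4.06 in the control lungs and 6.7, 9.74 and 10.34 in the neutrophilic lungs (log2 difference 4.66, SE 0.77, adjusted p = 0.00243, 5.78 without mouse 23), so that mouse 23 stood between the groups. Il6 measured 3.43, 3.51 and 3.86 in the control lungs and 4.58, 6.63 and 5.77 in the neutrophilic lungs (log2 difference 2.06, SE 0.45, adjusted p = 0.0125, 2.6 without mouse 23). Tnf measured 4.59, 4.83 and 5.34 in the control lungs and 5.43, 7.39 and 7.76 in the neutrophilic lungs (log2 difference 1.94, SE 0.49, adjusted p = 0.0245, 2.66 without mouse 23). Csf2, which encodes GM-CSF, rose by 1.65 (2.08 without mouse 23, adjusted p = 0.0106), and Csf1, the macrophage growth factor, by 1.3 (1.44 without mouse 23, adjusted p = 0.00799). Csf3, which encodes G-CSF and releases neutrophils from marrow, measured 4.56, 4.44 and 4.53 in the control lungs and 4.48, 7.06 and 7.4 in the neutrophilic lungs (log2 difference 1.8, SE 0.57, adjusted p = 0.0632, 2.72 without mouse 23 with adjusted p = 0.000151): it was high in 2 lungs and at the control level in mouse 23. Cxcl15, lungkine of lung epithelium, was high in all lungs and differed by -0.24 (0.04 without mouse 23, adjusted p = 0.666). With each mouse left out in turn, adjusted p reached 0.0664 for Il6 (without control mouse 1), 0.118 for Tnf (without control mouse 1) and 0.0516 for Csf2 (without control mouse 1).

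Of 18 genes that NF-kappaB can induce, several of them its own inhibitors or subunits, 14 were called higher and 0 lower (15 and 0 without mouse 23, 5 and 0 with all 12 arrays), with a median of 1.9 (2.28 without mouse 23). The other 4 did not pass. Socs3, which inhibits IL-6 and G-CSF receptor signalling and is induced by Stat3 too, measured 6.48, 6.54 and 6.25 in the control lungs and 9.33, 10.03 and 10.73 in the neutrophilic lungs (log2 difference 3.61, SE 0.34, adjusted p = 6.97e-05, 3.96 without mouse 23). Bcl3, a nuclear member of the inhibitor family, measured 6.39, 6.19 and 6.18 in the control lungs and 8.6, 9.91 and 10.37 in the neutrophilic lungs (log2 difference 3.37, SE 0.42, adjusted p = 0.000496, 3.89 without mouse 23). Mouse 23 was above all controls for both. Nfkbia, which encodes the inhibitor IkappaB-alpha, rose by 1.83, 2.26 without mouse 23, adjusted p = 0.0135, Tnip1 by 2.85, 3.35 without mouse 23, adjusted p = 0.00121, Tnfaip3, the A20 ubiquitin editor, by 2.76, 3.65 without mouse 23, adjusted p = 0.012, and Zc3h12a, the ribonuclease that cuts inflammatory messages, by 2.59, 3.34 without mouse 23, adjusted p = 0.00938. On leaving out single mice, adjusted p reached 0.0551 for Nfkbia (without control mouse 1).

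Of 12 genes on the monocyte chemokine list, 8 were called higher and 0 lower (11 and 0 without mouse 23), with a median of 2.26 (3.2 without mouse 23). Ccl8, a monocyte chemokine of macrophages, measured 3.55, 3.28 and 3.33 in the control lungs and 7.42, 9.75 and 8.27 in the neutrophilic lungs (log2 difference 5.09, SE 0.53, adjusted p = 0.000149, 5.62 without mouse 23). Ccl3 measured 5.95, 5.51 and 5.74 in the control lungs and 9.77, 11.2 and 11.68 in the neutrophilic lungs (log2 difference 5.15, SE 0.56, adjusted p = 0.000182, 5.71 without mouse 23). Ccl2, the main ligand of Ccr2, measured 5.06, 4.1 and 5.51 in the control lungs and 8.22, 9.39 and 8.54 in the neutrophilic lungs (log2 difference 3.83, SE 0.56, adjusted p = 0.0013, 4.07 without mouse 23). Ccl7, another ligand of the same receptor, rose by 3.87, 4.55 without mouse 23, adjusted p = 0.00471. All 4 had their lowest neutrophilic value in mouse 23. On the interferon chemokine list 3 of 9 genes were called higher and 0 lower (4 and 0 without mouse 23), with a median of 0.47 (1.09) and of -0.27 in mouse 23. The 3 were the ligands of Cxcr3. Cxcl10 measured 4.94, 4.89 and 4.84 in the control lungs and 8.47, 11.4 and 11.68 in the neutrophilic lungs (log2 difference 5.63, SE 0.68, adjusted p = 0.000387, 6.65 without mouse 23). Cxcl9 measured 4.97, 4.34 and 4.55 in the control lungs and 5.67, 10.77 and 10.02 in the neutrophilic lungs (log2 difference 4.2, SE 0.95, adjusted p = 0.0141, 5.77 without mouse 23). Cxcl11 rose by 2.51, 3.39 without mouse 23, adjusted p = 0.0133. Ifng, interferon gamma, differed by 0.73, adjusted p = 0.365, without mouse 23 1.31 and 0.0487. Among 28 interferon-stimulated genes 16 were called higher and 0 lower (15 and 0 without mouse 23), with a median of 1.44 (1.69 without mouse 23). They took in Gbp5, a guanylate-binding protein (2.96, 3.43 without mouse 23, adjusted p = 0.000559), Oasl1 (3.24, 3.68 without mouse 23, adjusted p = 0.000653), Ifit1 (2.56, 2.78 without mouse 23, adjusted p = 0.00157), Rsad2, the antiviral enzyme viperin (2.86, 3.33 without mouse 23, adjusted p = 0.00177), and Mx1 (1.67, 1.97 without mouse 23, adjusted p = 0.00622). With all 12 arrays 4 of the 28 were called. Cd14, the lipopolysaccharide co-receptor of monocytes and macrophages, rose by 4.24, 4.82 without mouse 23, adjusted p = 0.000207. Leaving out 1 mouse at a time ended a call, with adjusted p up to 0.0636 for Cxcl9 (without control mouse 2) and 0.0612 for Cxcl11 (without control mouse 1).

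Both IL-1 cytokines and the antagonists of their receptor rose. Of 16 IL-1 family genes, 7 were called higher and 1 lower (7 and 0 without mouse 23), with a median of 0.68 (0.62 without mouse 23). The share called higher was 43.8%, against 2.51% of all genes of like level. Il1b measured 7.63, 5.74 and 7.22 in the control lungs and 9.12, 10.47 and 10.86 in the neutrophilic lungs (log2 difference 3.28, SE 0.64, adjusted p = 0.00671, 3.8 without mouse 23). Il1a measured 6.85, 6.7 and 6.53 in the control lungs and 7.14, 9.6 and 9.47 in the neutrophilic lungs (log2 difference 2.05, SE 0.53, adjusted p = 0.0276, 2.85 without mouse 23). Il1rn, the secreted antagonist of the receptor, measured 5.72, 5.77 and 5.61 in the control lungs and 8.04, 9.8 and 9.9 in the neutrophilic lungs (log2 difference 3.55, SE 0.55, adjusted p = 0.00165, 4.15 without mouse 23). Il1f9, which encodes IL-36 gamma, rose by 3.08, 3.8 without mouse 23, adjusted p = 0.00628, and Il33, the alarmin of alveolar type 2 cells, by 2.04, 2.08 without mouse 23, adjusted p = 0.00275. Il18r1, a chain of the IL-18 receptor, was the single gene called lower (-1.22, adjusted p = 0.0403, without mouse 23 -1.07 and 0.0991). Among 24 inflammasome genes, 3 were called higher and 0 lower (5 and 0 without mouse 23), with a median of 0.19 in both fits: Il1b itself, Mefv, the pyrin sensor (1.76, 2.03 without mouse 23, adjusted p = 0.00909), and Casp4, which encodes mouse caspase-11 (1.94, 2.53 without mouse 23, adjusted p = 0.018). Nlrp3, the sensor of crystals and ATP, measured 4.75, 4.22 and 4.73 in the control lungs and 4.88, 6.5 and 7.22 in the neutrophilic lungs (log2 difference 1.63, SE 0.52, adjusted p = 0.067, 2.29 without mouse 23 with adjusted p = 0.00468). Casp1 differed by 0.77 (0.78 without mouse 23, adjusted p = 0.124) and Pycard, the adaptor ASC, by 0.16 (0.31 without mouse 23, adjusted p = 0.735). Calls that ended with 1 mouse left out had adjusted p up to 0.108 for Il1a (without neutrophilic mouse 24), 0.152 for Il18r1 (without control mouse 2), 0.0523 for Mefv (without control mouse 2) and 0.092 for Casp4 (without control mouse 2).

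On the IL-17 list 5 of 16 genes were called higher and 0 lower, also without mouse 23, with a median of 0.52 (0.36 without mouse 23). This was 31.2% called higher, against 2.51% of all genes of like level. Il17f measured 4.76, 4.92 and 5.09 in the control lungs and 5.84, 6.35 and 6.46 in the neutrophilic lungs (log2 difference 1.3, SE 0.27, adjusted p = 0.0088, 1.48 without mouse 23). Il17a measured 5.0, 4.78 and 5.61 in the control lungs and 5.56, 6.5 and 5.45 in the neutrophilic lungs (log2 difference 0.71, 0.84 without mouse 23, adjusted p = 0.199). Il17f was higher in each neutrophilic lung than in each control, and Il17a overlapped. Il23r, the receptor of IL-23, rose by 1.14, adjusted p = 0.0351, without mouse 23 0.89 and 0.097. Lcn2, the siderophore-binding protein that IL-17 and IL-1 induce in epithelium, measured 9.81, 10.17 and 10.32 in the control lungs and 12.33, 13.29 and 13.47 in the neutrophilic lungs (log2 difference 2.93, SE 0.41, adjusted p = 0.000987, 3.28 without mouse 23). With all 12 arrays Il17f was the only gene of this list past the threshold (adjusted p = 0.0354). With each mouse left out in turn, adjusted p reached 0.0589 for Il17f (without control mouse 1) and 0.137 for Il23r (without control mouse 2).

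Of 24 type 2 genes, 6 were called higher and 1 lower (9 and 0 without mouse 23), with a median of 0.53 (0.41 without mouse 23). These were 25% and 4.17%, against 2.51% and 9.99% of all genes of like level. Ccl17, a ligand of Ccr4 on type 2 helper cells, measured 5.69, 5.85 and 6.42 in the control lungs and 9.96, 10.76 and 9.93 in the neutrophilic lungs (log2 difference 4.23, SE 0.32, adjusted p = 8.85e-06, 4.36 without mouse 23). Ccl11, the eosinophil chemokine eotaxin-1, measured 5.15, 4.89 and 5.69 in the control lungs and 8.93, 9.66 and 9.61 in the neutrophilic lungs (log2 difference 4.16, SE 0.44, adjusted p = 0.000164, 4.39 without mouse 23). Ccl22 rose by 3.34, 3.7 without mouse 23, adjusted p = 0.000391. All 3 were over 2 units above the controls in every neutrophilic lung. The cytokines themselves lay near the bottom of the scale. Il13 measured 4.86, 4.26 and 5.47 in the control lungs and 5.03, 4.92 and 5.77 in the neutrophilic lungs (log2 difference 0.38, 0.48 without mouse 23, adjusted p = 0.513), Il4 differed by 0.71 (0.75 without mouse 23, adjusted p = 0.28), and Il5 by 0.63 (0.17 without mouse 23, adjusted p = 0.314), with only mouse 23 high for Il5 (5.28 against 3.84 and 3.94). Such a high value at low intensity recurred on array 23 in Prg3 and Krt5. The median over all genes with a mean level under 5 was 0.27 with mouse 23 and 0.08 without.

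Most eosinophil genes did not pass the threshold. Among 10 eosinophil genes 1 was called higher and 0 lower, also without mouse 23, with a median of 0.58 (0.36 without mouse 23). That was 10% of the list, against 2.51% of all genes of like level. Epx, eosinophil peroxidase, measured 4.21, 4.2 and 4.21 in the control lungs and 4.94, 4.87 and 4.56 in the neutrophilic lungs (0.58, 0.51 without mouse 23, adjusted p = 0.214), and Prg2, the major basic protein, measured 4.33, 4.04 and 4.45 in the control lungs and 5.88, 4.61 and 4.6 in the neutrophilic lungs (0.76, 0.34 without mouse 23, adjusted p = 0.251). Prg3, its homologue, differed by 0.66 (0.11 without mouse 23, adjusted p = 0.308). The exception was Rnase2a, a ribonuclease of the eosinophil-associated family, at 3.42, 4.24 and 4.51 in the control lungs and 8.94, 8.63 and 7.69 in the neutrophilic lungs (log2 difference 4.36, SE 0.44, adjusted p = 9.93e-05, 4.11 without mouse 23). Its close relative Rnase2b differed by 0.49 (0.24 without mouse 23, adjusted p = 0.337), and probes of such close relatives can share signal. Of 12 mast cell and basophil genes 0 were called higher and 1 lower (0 and 0 without mouse 23). The share called lower was 8.33%, near the 7.23% of all genes. The gene called lower was Kit, the stem cell factor receptor, which endothelium also expresses (-1.27, adjusted p = 0.0292, without mouse 23 -0.96 and 0.0799). On leaving out single mice, adjusted p reached 0.127 for Kit (without control mouse 1).

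Genes of alternatively activated macrophages and their epithelial counterparts rose in 8 of 17 cases (12 without mouse 23), with 0 falls. The share called higher was 47.1%, against 5% of all genes of like level. The median was 1.19 (1.51 without mouse 23). Retnla, which encodes the secreted protein Fizz1, measured 7.19, 7.31 and 8.13 in the control lungs and 12.5, 12.06 and 12.03 in the neutrophilic lungs (log2 difference 4.65, SE 0.3, adjusted p = 2.4e-06, 4.5 without mouse 23). Chil3, the chitinase-like protein Ym1, measured 7.54, 6.79 and 6.21 in the control lungs and 10.26, 11.1 and 10.15 in the neutrophilic lungs (log2 difference 3.65, SE 0.35, adjusted p = 8.7e-05, 3.78 without mouse 23). Its near relative Chil4 measured 3.7, 3.84 and 4.5 in the control lungs and 6.33, 6.11 and 6.56 in the neutrophilic lungs (log2 difference 2.32, SE 0.3, adjusted p = 0.00056, 2.33 without mouse 23). Arg1, arginase 1, measured 4.7, 4.93 and 4.69 in the control lungs and 7.23, 7.8 and 7.59 in the neutrophilic lungs (log2 difference 2.76, SE 0.33, adjusted p = 0.000359, 2.92 without mouse 23). For all 4, mouse 23 lay within 1 unit of mice 24 and 25. Irf4, a transcription factor of this programme and of plasma cells, measured 5.34, 5.13 and 4.88 in the control lungs and 6.26, 8.77 and 8.32 in the neutrophilic lungs (log2 difference 2.66, SE 0.48, adjusted p = 0.004, 3.43 without mouse 23), with mouse 23 the lowest. Slc7a11, the cystine importer, rose by 3.96, 4.26 without mouse 23, adjusted p = 0.00143, and Nos2, inducible nitric oxide synthase, differed by 0.77 (1.26 without mouse 23, adjusted p = 0.24, and 0.0154 without it). Resident alveolar macrophage genes were called higher in 3 of 16 cases (5 without mouse 23) and lower in 0. With mouse 23, 18.8% were thus called higher, against 5% of all genes of like level.

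Of 5 gel-forming mucins, 2 were called higher and 0 lower, with and without mouse 23 (1 and 0 with all 12 arrays). Muc5ac, the inducible airway mucin, measured 4.52, 4.79 and 5.24 in the control lungs and 7.37, 7.5 and 7.53 in the neutrophilic lungs (log2 difference 2.62, SE 0.28, adjusted p = 0.000162, 2.67 without mouse 23). Muc5b, the mucin of resting airways, measured 5.72, 6.66 and 6.07 in the control lungs and 8.76, 8.62 and 9.27 in the neutrophilic lungs (log2 difference 2.73, SE 0.34, adjusted p = 0.000451, 2.79 without mouse 23). No neutrophilic lung overlapped the controls for either gene, and mouse 23 was like mice 24 and 25. Muc2 differed by 0.27 (0.36 without mouse 23, adjusted p = 0.505). Of 22 goblet cell genes 9 were called higher and 0 lower, also without mouse 23 (3 and 0 with all 12 arrays). This was 40.9% called higher, against 2.51% of all genes of like level, with a median of 0.81 (0.66 without mouse 23). Beside Clca1 and Slc26a4, Tff2, a trefoil peptide, measured 5.16, 6.14 and 6.24 in the control lungs and 8.76, 9.17 and 8.84 in the neutrophilic lungs (log2 difference 3.08, SE 0.34, adjusted p = 0.000222, 3.16 without mouse 23). Pigr, which carries IgA across epithelium, rose by 3.26, 3.59 without mouse 23, adjusted p = 7.68e-05, Bpifb1 by 2.55, 2.58 without mouse 23, adjusted p = 0.000653, and Agr2, the disulfide isomerase that folds mucins, by 1.45, 1.67 without mouse 23, adjusted p = 0.0314. Spdef, the transcription factor of goblet cells, differed by 0.65 (0.74 without mouse 23, adjusted p = 0.177). Muc4 was the single one of 8 membrane mucins called higher (1.06, 1.17 without mouse 23, adjusted p = 0.0189). In the squamous list, where 3 of 21 genes were called higher (2 without mouse 23) and 0 lower, Sprr1a, a cornified envelope protein, measured 4.57, 4.84 and 4.3 in the control lungs and 8.43, 8.88 and 9.41 in the neutrophilic lungs (log2 difference 4.34, SE 0.32, adjusted p = 8.85e-06, 4.58 without mouse 23). Tgm1, the transglutaminase that links such proteins, measured 5.7, 6.0 and 5.92 in the control lungs and 8.16, 9.46 and 10.01 in the neutrophilic lungs (log2 difference 3.34, SE 0.38, adjusted p = 0.000254, 3.86 without mouse 23). The basal keratin Krt5 differed by 0.35 (-0.11 without mouse 23, adjusted p = 0.548). Leaving out 1 mouse at a time ended a call, with adjusted p up to 0.15 for Agr2 (without control mouse 1) and 0.0933 for Muc4 (without control mouse 1). The calls of Muc5b, Pigr, Bpifb1, Agr2 and Muc4 ended with all 12 arrays.

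**Figure D3:**
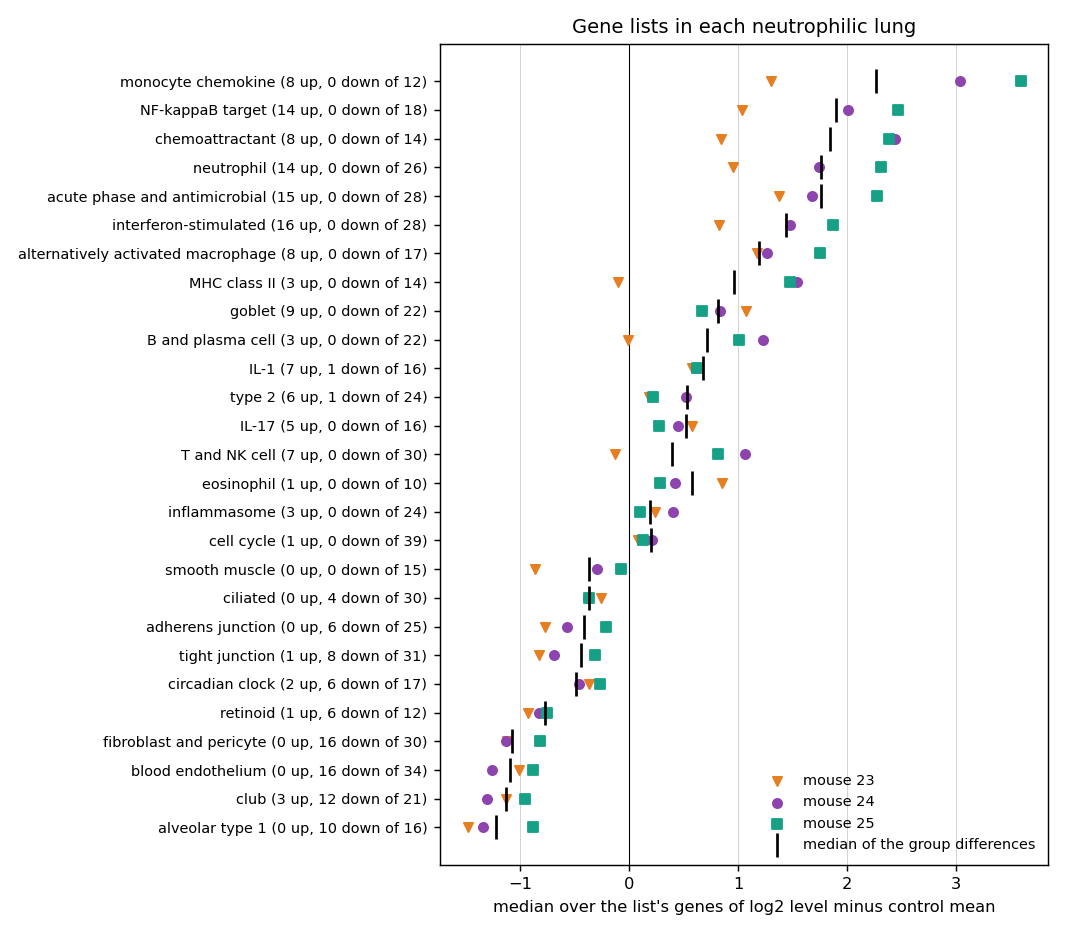
For 27 gene lists, the median over the list's genes of the log2 level minus the control mean in each neutrophilic lung (triangle, circle and square for mice 23, 24 and 25) and the median of the group differences (bar), with the number of members called higher and lower. Mouse 23 lay at -0.1 for MHC class II, where mice 24 and 25 lay at 1.54 and 1.47, and at -1.48 for alveolar type 1 genes, where they lay at -1.34 and -0.88.

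Of 31 tight junction genes, 8 were called lower and 1 higher (5 and 2 without mouse 23), with a median of -0.44 (-0.37 without mouse 23). The share called lower was 25.8% (16.1%), against 7.23% of all genes. The list's mean level of 6.96 lies at the top of the range from 5 to 7. In that range 9.99% of all genes were called lower (7.76% without mouse 23), with a median of -0.17 (-0.12). In the next range, from 7 to 9, 14.8% were called lower (9.5%), with a median of -0.4 (-0.17). The members' median span was 26.5 kb. Mpp5, also called Pals1, which anchors the Crumbs polarity complex, measured 7.94, 7.93 and 7.78 in the control lungs and 6.0, 5.74 and 5.81 in the neutrophilic lungs (log2 difference -2.03, SE 0.23, adjusted p = 0.000222, -2.11 without mouse 23). Tjp1, the scaffold ZO-1, measured 10.45, 10.33 and 9.94 in the control lungs and 7.54, 8.53 and 8.66 in the neutrophilic lungs (log2 difference -2.0, SE 0.31, adjusted p = 0.00157, -1.64 without mouse 23). Magi3, another scaffold, fell (-1.76, -1.58 without mouse 23, adjusted p = 0.00244). The groups did not overlap for these, as for 1881 of the 1889 called genes. Ocln, occludin, measured 7.72, 7.47 and 7.35 in the control lungs and 6.62, 6.68 and 6.75 in the neutrophilic lungs (log2 difference -0.83, SE 0.24, adjusted p = 0.0461, -0.8 without mouse 23 with adjusted p = 0.0772). Cldn18, the main claudin of alveolar type 1 cells, measured 12.04, 12.17 and 11.42 in the control lungs and 10.23, 10.46 and 10.97 in the neutrophilic lungs (log2 difference -1.33, SE 0.35, adjusted p = 0.0286, -1.16 without mouse 23 with adjusted p = 0.0727). The calls of Ocln, Cldn18 and Jam2 (-1.35, adjusted p = 0.0233, without mouse 23 -1.08 and 0.0646) ended without mouse 23. Cldn4, a claudin that lung epithelium induces on injury, went the other way and measured 6.1, 6.16 and 6.02 in the control lungs and 7.41, 8.36 and 9.51 in the neutrophilic lungs (log2 difference 2.33, SE 0.45, adjusted p = 0.00622, 2.84 without mouse 23). With all 12 arrays only Mpp5 and Magi3 of this list were called (adjusted p = 0.0252 and 0.0346). Calls that ended with 1 mouse left out had adjusted p up to 0.217 for Ocln (without control mouse 1), 0.137 for Cldn18 (without control mouse 2) and 0.108 for Jam2 (without control mouse 2).

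Of 25 adherens junction and desmosome genes 6 were called lower and 0 higher (6 and 1 without mouse 23), with a median of -0.41 (-0.39 without mouse 23). Their share called lower was 24%, at a mean level of 7.07 and a median span of 47.3 kb, where 19.3% of bright genes of 30 to 100 kb were called lower with a median of -0.58. With mouse 23, neither the count nor the median thus set this list clearly below the genes of like level and span. Without mouse 23 the list's share was again 24%, and that of those bright genes was 11.5%, with a median of -0.34. Nectin3, an adhesion receptor of the immunoglobulin superfamily, measured 8.79, 8.83 and 8.67 in the control lungs and 6.83, 6.58 and 7.32 in the neutrophilic lungs (log2 difference -1.85, SE 0.26, adjusted p = 0.000985, -1.81 without mouse 23). Afdn, which ties nectins to actin, fell (-1.33, -1.19 without mouse 23, adjusted p = 0.00628), Vcl, vinculin (-1.4, -1.24 without mouse 23, adjusted p = 0.00743), and Ctnnd1, p120 catenin (-1.18, -1.13 without mouse 23, adjusted p = 0.0107). E-cadherin itself, Cdh1, measured 9.65, 9.87 and 9.76 in the control lungs and 9.18, 9.59 and 9.87 in the neutrophilic lungs (log2 difference -0.22, -0.04 without mouse 23, adjusted p = 0.643), with overlapping groups. With all 12 arrays 1 gene, Nectin3, was called (adjusted p = 0.0118). With each mouse left out in turn, adjusted p reached 0.0551 for Vcl (without control mouse 1) and 0.072 for Ctnnd1 (without control mouse 1).

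Alveolar type 1 genes had the lowest median of the lung cell lists. Of 16 measured, 10 were called lower and 0 higher (7 and 0 without mouse 23, 3 and 0 with all 12 arrays), with a median of -1.22 (-1.15 without mouse 23). The share called lower was 62.5% (43.8% without mouse 23). Among all genes with a mean level of 9 and above it was 10.8% (6.56%), and their median was -0.34 (-0.1). Rtkn2, a type 1 marker, measured 8.7, 8.57 and 8.1 in the control lungs and 6.53, 5.98 and 6.25 in the neutrophilic lungs (log2 difference -2.2, SE 0.26, adjusted p = 0.000378, -2.34 without mouse 23). Akap5, an anchoring protein, measured 10.77, 10.81 and 10.18 in the control lungs and 7.91, 7.62 and 8.09 in the neutrophilic lungs (log2 difference -2.72, SE 0.3, adjusted p = 0.000222, -2.73 without mouse 23). Cav2, caveolin 2, fell (-2.34, -2.25 without mouse 23, adjusted p = 0.00243), and Clic5, a chloride channel protein (-1.55, -1.56 without mouse 23, adjusted p = 0.00246). Ager, the receptor RAGE that defines type 1 cells, differed by -0.59 (-0.54 without mouse 23, adjusted p = 0.235). Of 20 type 2 genes 1 was called higher (Il33) and 2 lower (2 and 2 without mouse 23), and Sftpc differed by -0.39 (-0.22 without mouse 23, adjusted p = 0.476). The type 2 median was -0.32 with mouse 23 and -0.06 without, and the list stood at -0.95, -0.07 and 0.01 in mice 23, 24 and 25.

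Of 21 club cell genes 12 were called lower and 3 higher (11 and 1 without mouse 23, 2 and 0 with all 12 arrays), with a median of -1.13 (-1.12 without mouse 23). The share called lower was 57.1% (52.4% without mouse 23), against 10.8% (6.56%) of all genes with a mean level of 9 and above. Cyp2f2, the cytochrome that activates naphthalene, measured 14.05, 14.08 and 13.29 in the control lungs and 11.79, 11.49 and 12.46 in the neutrophilic lungs (log2 difference -1.89, SE 0.4, adjusted p = 0.00976, -1.83 without mouse 23). Fmo2, a flavin monooxygenase, fell (-2.06, -2.22 without mouse 23, adjusted p = 0.00456), Aldh1a1 (-1.51, -1.55 without mouse 23, adjusted p = 0.0023), and Gsta3, a glutathione transferase (-1.49, -1.52 without mouse 23, adjusted p = 0.00442). Scgb1a1 differed by 0.66 (0.69 without mouse 23, adjusted p = 0.104), and the 3 genes called higher were Retnla, Gsto1, a glutathione transferase (1.16, adjusted p = 0.0238, without mouse 23 1.05 and 0.0546), and Lypd2 (1.2, adjusted p = 0.0448, without mouse 23 1.04 and 0.115). Of 30 ciliated cell genes 4 were called lower and 0 higher (6 and 0 without mouse 23), with a median of -0.37 (-0.46 without mouse 23). The share called lower was 13.3% (20% without mouse 23), against 9.99% (7.76%) among all genes of like level. The median of those genes was -0.17 (-0.12). On leaving out single mice, adjusted p reached 0.0595 for Cyp2f2 (without control mouse 1), 0.106 for Gsto1 (without control mouse 1) and 0.178 for Lypd2 (without control mouse 1).

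Of 34 blood endothelial genes 16 were called lower and 0 higher (15 and 0 without mouse 23, 3 and 0 with all 12 arrays), with a median of -1.09 (-1.12 without mouse 23). This was 47.1% of the list, against 14.8% of all genes of like level, and the members' median span was 14.7 kb. Tek, the angiopoietin receptor Tie2, measured 11.25, 11.12 and 10.73 in the control lungs and 8.39, 8.69 and 8.85 in the neutrophilic lungs (log2 difference -2.39, SE 0.24, adjusted p = 0.000119, -2.26 without mouse 23). Kdr, the VEGF receptor 2, measured 10.47, 10.46 and 10.23 in the control lungs and 8.17, 7.71 and 8.51 in the neutrophilic lungs (log2 difference -2.25, SE 0.29, adjusted p = 0.000531, -2.27 without mouse 23). Clec14a, an endothelial lectin, fell (-2.62, -2.68 without mouse 23, adjusted p = 8.96e-05), and Ednrb, the endothelin B receptor (-2.3, -2.22 without mouse 23, adjusted p = 0.00053). Pecam1, the general endothelial marker CD31, was called by a smaller margin (-0.93, adjusted p = 0.0394, without mouse 23 -0.85 and 0.0795), and Cdh5, VE-cadherin, differed by -0.65 (-0.66 without mouse 23, adjusted p = 0.223). The mean level of the list ran from 9.19 to 9.38 in the controls and from 7.89 to 8.4 in the neutrophilic lungs. Leaving out 1 mouse at a time ended a call, with adjusted p up to 0.164 for Pecam1 (without control mouse 2).

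Fibroblast and pericyte genes were called lower in 16 of 30 cases and higher in 0 (15 and 0 without mouse 23, 4 and 0 with all 12 arrays), with a median of -1.07 (-1.04 without mouse 23). Their median span was 43 kb, and 53.3% were called lower, against 19.3% of bright genes of 30 to 100 kb. Foxf1, a transcription factor of lung mesenchyme and capillaries, fell (-1.89, -1.83 without mouse 23, adjusted p = 0.000559), Meox2 (-2.5, -2.2 without mouse 23, adjusted p = 0.00532), and Gucy1a1, a subunit of the nitric oxide receptor (-1.87, -1.86 without mouse 23, adjusted p = 0.00141). Of 15 smooth muscle genes 0 were called in either direction, with or without mouse 23, with a median of -0.37 (-0.12 without mouse 23). Retinoid genes fell in 6 of 12 cases and rose in 1 (5 and 1 without mouse 23, 2 and 1 with all 12 arrays). Their share called lower was 50% (41.7% without mouse 23), at a mean level of 7.02 and a median span of 31.2 kb. Among bright genes of 30 to 100 kb it was 19.3% (11.5%). Beside Lrat, the retinoic acid receptor Rarb fell (-1.41, -1.51 without mouse 23, adjusted p = 0.0086) and Rarg (-1.29, -1.31 without mouse 23, adjusted p = 0.00802), and Aldh1a3, which makes retinoic acid, rose by 2.26, 2.32 without mouse 23, adjusted p = 0.00121. Among 34 matrix genes 10 were called higher and 2 lower, with a median of 0.52. These were 29.4% and 5.88%, against 5% and 14.8% of all genes of like level. Without mouse 23 the counts were 15 and 0, with a median of 0.77. The falls of Postn, periostin (-0.93, adjusted p = 0.0409, without mouse 23 -0.72 and 0.105), and Col12a1 (-0.88, adjusted p = 0.0395, without mouse 23 -0.89 and 0.0563) ended without it. Mmp12, the macrophage elastase, measured 7.25, 5.16 and 5.78 in the control lungs and 8.39, 10.38 and 9.18 in the neutrophilic lungs (log2 difference 3.25, SE 0.53, adjusted p = 0.00218, 3.72 without mouse 23). Thbs1, thrombospondin 1, rose by 2.3, 2.44 without mouse 23, adjusted p = 0.00142. Nox4, an NADPH oxidase, fell (-2.41, -2.4 without mouse 23, adjusted p = 0.00141). Calls that ended with 1 mouse left out had adjusted p up to 0.0611 for Rarb (without control mouse 1), 0.0537 for Rarg (without control mouse 2), 0.179 for Postn (without control mouse 2) and 0.184 for Col12a1 (without control mouse 2).

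**Figure D4:**
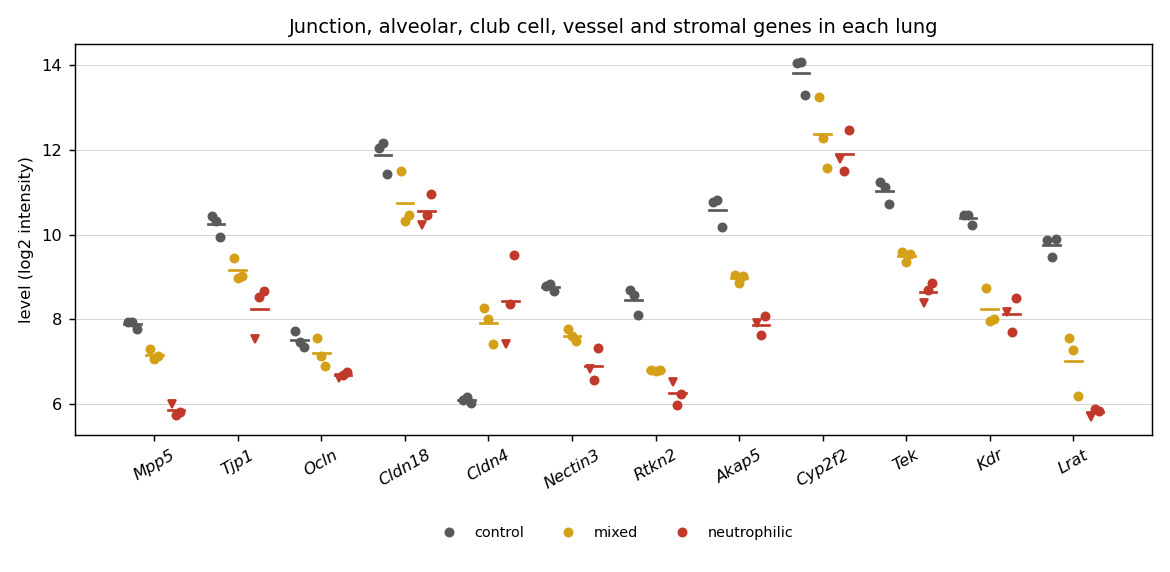
Log2 level of 12 junction, alveolar, club cell, vessel and stromal genes in each control, mixed and neutrophilic lung (3 lungs a group, lines at group means, the triangle marks neutrophilic mouse 23). Cldn4 is the one gene drawn that was higher than in the controls; the other 11 were lower in every neutrophilic lung.

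Clock genes changed in both directions. Of 17 measured, 6 were called lower and 2 higher, also without mouse 23 (1 and 1 with all 12 arrays). The share called lower was 35.3%, against 9.99% among all genes of like level. The members' median span was 30.4 kb, and 19.3% of bright genes of 30 to 100 kb were called lower (11.5% without mouse 23). Nfil3, a repressor of the clock output that cytokines also induce, measured 5.13, 4.25 and 4.56 in the control lungs and 7.42, 8.71 and 8.69 in the neutrophilic lungs (log2 difference 3.62, SE 0.35, adjusted p = 8.7e-05, 4.05 without mouse 23). Per3 measured 7.04, 7.41 and 6.88 in the control lungs and 5.53, 5.43 and 4.97 in the neutrophilic lungs (log2 difference -1.8, SE 0.25, adjusted p = 0.000915, -1.91 without mouse 23). Nr1d1, the repressor Rev-erb alpha, measured 10.62, 10.95 and 10.81 in the control lungs and 8.18, 8.56 and 9.13 in the neutrophilic lungs (log2 difference -2.17, SE 0.38, adjusted p = 0.00347, -1.95 without mouse 23). Dbp fell (-1.8, -1.78 without mouse 23, adjusted p = 0.00332) and Clock (-1.72, -1.32 without mouse 23, adjusted p = 0.00456). The partner of Clock, Arntl, measured 5.45, 5.43 and 5.41 in the control lungs and 5.61, 5.23 and 5.79 in the neutrophilic lungs (log2 difference 0.11, 0.08 without mouse 23, adjusted p = 0.824), and Per2 differed by -0.19 (-0.32 without mouse 23, adjusted p = 0.709). The labels give no hour of collection.

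Calls of lymphocyte and antigen presentation genes depended on mouse 23. Of 30 T and NK cell genes 7 were called higher with mouse 23 (23.3%, against 2.51% of all genes of like level) and 11 without. Il2ra, the high-affinity IL-2 receptor chain, measured 4.96, 4.64 and 5.46 in the control lungs and 7.36, 9.08 and 8.42 in the neutrophilic lungs (log2 difference 3.27, SE 0.43, adjusted p = 0.000653, 3.73 without mouse 23). Ctla4, an inhibitory receptor, measured 4.66, 3.93 and 4.23 in the control lungs and 5.03, 8.05 and 7.87 in the neutrophilic lungs (log2 difference 2.71, SE 0.61, adjusted p = 0.0143, 3.69 without mouse 23). Mouse 23 was above the controls for both and under mice 24 and 25. The pan-T-cell gene Cd3e differed by 0.42 (1.33 without mouse 23, adjusted p = 0.734 and 0.178). Of 14 MHC class II and co-stimulation genes 3 were called higher with mouse 23 and 10 without. With mouse 23 the share was 21.4%, against 5% of all genes of like level. H2-Ab1 measured 9.25, 9.23 and 9.06 in the control lungs and 9.42, 10.99 and 10.68 in the neutrophilic lungs (log2 difference 1.18, SE 0.44, adjusted p = 0.116, 1.65 without mouse 23 with adjusted p = 0.0215). Cd83, a marker of mature dendritic cells, measured 6.98, 6.39 and 6.85 in the control lungs and 8.67, 10.29 and 10.07 in the neutrophilic lungs (log2 difference 2.94, SE 0.4, adjusted p = 0.000794, 3.44 without mouse 23). With each mouse left out in turn, adjusted p reached 0.0706 for Ctla4 (without control mouse 2).

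Immunoglobulin genes had the widest spread of list medians among the 3 neutrophilic lungs. Of 11 measured, 8 were called higher and 0 lower (10 and 0 without mouse 23), against 2.24% of all genes called higher. Their medians against control were 1.35, 5.23 and 3.28 in mice 23, 24 and 25. Jchain, the joining chain of secreted IgA and IgM, measured 6.81, 6.25 and 4.95 in the control lungs and 7.89, 11.31 and 10.51 in the neutrophilic lungs (log2 difference 3.9, SE 0.78, adjusted p = 0.00776, 4.91 without mouse 23). Igha and Ighm, the IgA and IgM heavy chains, were chosen after their values were seen. Igha measured 6.01, 5.62 and 5.19 in the control lungs and 7.2, 10.83 and 11.67 in the neutrophilic lungs (log2 difference 4.29, SE 1.11, adjusted p = 0.0275, 5.64 without mouse 23). Ighm measured 6.4, 5.87 and 5.88 in the control lungs and 7.67, 10.9 and 9.33 in the neutrophilic lungs (log2 difference 3.25, SE 0.59, adjusted p = 0.00422, 4.06 without mouse 23). The B cell gene Cd79a overlapped the controls, at 7.27, 7.48 and 6.3 in the control lungs and 6.17, 8.56 and 8.4 in the neutrophilic lungs (log2 difference 0.69, SE 0.56, adjusted p = 0.476, 1.46 without mouse 23 with adjusted p = 0.046). Probes of related immunoglobulin segments can share signal. Cell cycle genes were called higher in 1 of 39 cases and lower in 0, also without mouse 23. The share called higher, 2.56%, was near the 2.51% of all genes of like level, of which 9.99% were called lower. On leaving out single mice, adjusted p reached 0.096 for Igha (without neutrophilic mouse 25).

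**Figure D5:**
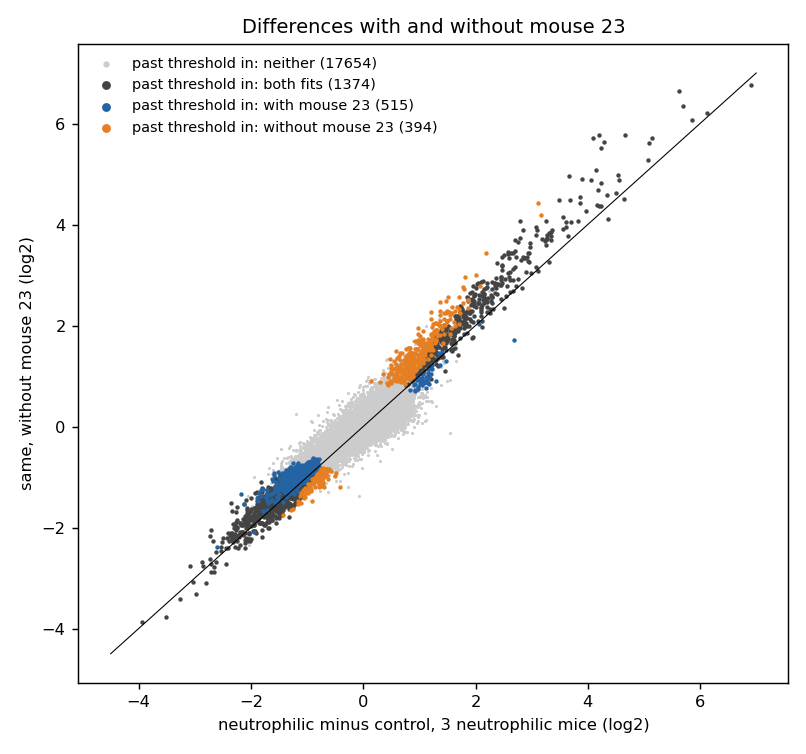
Neutrophilic minus control difference of 19937 genes with all 3 neutrophilic mice (log2, horizontal) and without mouse 23 (log2, vertical), with the line of equal values. The 1374 genes called in both fits have the same sign, 515 were called only with mouse 23 and 394 only without it.

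Against the mixed model, which had the same route and schedule at the lower dose, no gene passed the threshold. The limma fit gave 0 of 19937 genes at adjusted p under 0.05, with or without mouse 23, and 1459 genes had an unadjusted p under 0.05 (1235 without mouse 23). Other settings gave calls: 53 genes without the 3 low-range arrays, 11 without the eosinophilic group, 7 with the array SD as a covariate and 509 with array weights. The intervals remain wide, so the absence of calls does not show that the doses act alike. Cxcl5 had a mean of 8.88 in the mixed lungs, and the neutrophilic minus mixed difference was -0.14 (95% interval -0.9 to 0.62, adjusted p = 0.944). For S100a9 the difference was 0.77 (95% interval -0.2 to 1.75, adjusted p = 0.78), for Ly6g -0.09 (95% interval -1.38 to 1.2, adjusted p = 0.983), for Muc5ac -0.05 (95% interval -0.65 to 0.54, adjusted p = 0.979) and for Clca1 -0.44 (95% interval -1.08 to 0.2, adjusted p = 0.814). The neutrophil markers had a median difference of 0.03 and the chemoattractants of -0.15. The interval for Ly6g held differences of over 2-fold in either direction.

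Of the immune and lung cell lists, the immunoglobulin genes had the highest median in this comparison, at 1.15, and the club cell genes the lowest, at -0.51. Igha differed by 1.66 (95% interval -0.72 to 4.05, adjusted p = 0.814) and Cyp2f2 by -0.45 (95% interval -1.3 to 0.4, adjusted p = 0.839). Chil4 was lower in the neutrophilic than in the mixed lungs by the fitted value of -1.56 (95% interval -2.2 to -0.92, adjusted p = 0.263), Mpp5 by -1.31 (95% interval -1.8 to -0.82, adjusted p = 0.255), Hpgd by -1.48 (95% interval -2.24 to -0.72, adjusted p = 0.42) and Nbeal1 by -1.65 (95% interval -2.19 to -1.11, adjusted p = 0.248). None of these passed the threshold, though Mpp5 and Nbeal1 were among the 11 genes called without the eosinophilic group. The small nucleolar RNA genes had a median difference of 0.7 in the same direction as against control.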

How the data were processed

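Whole lungs of 12 mice were profiled on Affymetrix mouse Gene 1.0 ST arrays. The deposited values are log2 intensities, 1 per probe set. Per the submitters' processing notes the authors used RMA, which corrects background, quantile-normalizes and summarises probes, and the Affymetrix Expression Console software, with versions not given in the sources used here. Of 34760 probe sets, 21640 had a single gene symbol in the platform's annotation. A gene was represented by its brightest probe set, judged by the mean of the 12 arrays, which gave 19937 genes. Symbols were set against a RefSeq gene table of GRCm38.p6 through 21553 matched Entrez IDs, and none changed.

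A mean for each of 4 groups was fitted in R 4.3.3 with limma 3.58.1 (lmFit, eBayes) over 11 arrays, without that of eosinophilic mouse 7. The array of eosinophilic mouse 9, also of low range, was kept. The two-sided p-values were adjusted over all genes, with adjusted p under 0.05 as threshold. Log2 differences are neutrophilic minus control. With 3 mice a group the number of arrays limits the precision. Each p-value sets a group difference against the spread within groups, estimated over all 4 groups of the fit.

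Members and gene lists were chosen with earlier results of these data known, so lists carry no test of their own, only counts and medians. Named genes were the 12 largest rises and falls among called genes without overlap. That ranking left out predicted, clone, micro RNA, small nucleolar RNA and immunoglobulin symbols. Also named were up to 6 list members by smallest p, members of the neutrophil, chemokine, cytokine, mucin, junction and clock lists, and cell type markers. Cyp2f2, Nfkbia, Tnfaip3, Nos2, Gsto1, Lypd2, Col12a1, Krt5, Mt1, Igha and Ighm were named after their values were seen. Immunoglobulin genes were listed by symbol and RNA classes by RefSeq type after the data were seen, and shares called by range of mean level and of RefSeq genomic span were added then too. Alternatives changed the arrays, normalization, filter on dim probes, variance model, array quality terms and probe set rule.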

Additional observations from a re-analysis of the deposited data

How the results depend on the processing

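Without mouse 23, 11 of 132 named calls ended and 8 of the 33 other named genes passed. Of the 132, 68 were past the threshold under every setting that gave a value and 59 fell short with all 12 arrays. Against control, 421 genes were called with all 12 arrays, 3188 (1149 higher, 2039 lower) without the low-range arrays, 6740 with array weights, 2910 (1164 higher, 1746 lower) with the array SD as covariate, and 605 to 1768 with 1 mouse left out, lowest without control mouse 1. Against the mixed group, the count of 0 became 11 without the eosinophilic group, 53 without the low-range arrays, 509 with array weights and 7 with the SD covariate, and stayed 0 with any 1 mouse left out. Direction turned only for 9 genes that had not passed. Quantile normalization turned Cdh1 to 0.03, Elane to -0.16 and Per2 to 0.17. The fit without low-range arrays turned Cxcl15 to 0.04, Krt5 to -0.11 and Mpo to -0.01, array weights turned Arntl to -0.04, Cxcl15 to 0.11 and Krt5 to -0.04, and the SD covariate turned Cxcl15 to 0.08, Elane to -0.15 and Mpo to -0.06. With 1 mouse left out, the lowest and highest values were -0.01 and 0.27 for Arntl, -0.05 and 1.33 for Cd3e, -0.43 and 0.04 for Cxcl15, -0.04 and 0.14 for Elane, -0.11 and 0.62 for Krt5, -0.01 and 0.68 for Mpo, and -0.02 and 0.31 for Pycard. The causes of these moves were not tested. Of 987 list medians under alternatives, 904 moved by less than the spread between the 3 neutrophilic lungs. No paired analysis was possible because the groups share no replicate number. No other background correction was possible, since only summarised values were used here.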
